A study of Mus with 21 samples.

Results

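A set of 10 genes that mark different states of macrophages were followed by symbol through the read counts of mouse skin wounds. They were Nos2, Arg1, Retnla, Chil3, Mrc1, Cd163, Trem2, Spp1, Gpnmb and Adgre1, 10 of the 18806 genes in the count tables, and all 10 passed the filter on low counts. They were listed for what they are known to do, with earlier results of these data known. Ccr7 was followed beside them, because the study stained wounds for the CCR7 and CD206 proteins, and CD206 is the product of Mrc1.

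Macrophages clear debris from a wound and later support new tissue, and they change their gene program as they do so. Interferon and bacterial products drive an inflammatory program that includes Nos2, whereas interleukins 4 and 13 drive Arg1, Retnla, Chil3 and Mrc1. Scavenger receptors such as Cd163 mark macrophages that take up haemoglobin or reside in the dermis. Trem2, Spp1 and Gpnmb belong to a program of macrophages that ingest lipid and debris. These programs overlap within single cells in tissue, so the words inflammatory and repair are used below only as names of lists.

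RNA was sequenced from 21 libraries of wounded skin on day 4, in 7 groups of 3. All came from wild-type C57BL/6 mice, which the study's methods describe as young females, and all wounds were full-thickness biopsy punches on the dorsal skin held open by a splint. The control wounds received no hydrogel. The other 6 groups received gelatin methacryloyl (GelMA) hydrogels at pH 6.4, 7.4 or 8.4, each loaded with acidic (aFGF) or basic (bFGF) fibroblast growth factor, and are named by pH and factor, as in 6.4/aFGF. Since no group had a hydrogel without a growth factor, the effects of the gel and of the factors cannot be told apart in a comparison with control. The labels call the 3 libraries of a group biological replicates but tie none to an animal, and each mouse carried a wound on both sides, so p-values measure the spread between these libraries.

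Total counts per library ranged from 34362558 to 37817833, and 3 counts, the limit that a count of 0 allows, corresponded to 0.0793 to 0.0873 CPM (counts scaled to library size). Keratin and collagen genes were high in every library, with Krt14 at 1178 to 2942 CPM and Col1a1 at 9042 to 22138 CPM, and so were the macrophage genes Csf1r at 497 to 886 CPM and Cd68 at 165 to 323 CPM. Of the 21 libraries, 4 stood apart. Replicate 3 of 7.4/aFGF held cartilage, bone and marrow transcripts (Col2a1 at 195 CPM, at most 0.965 elsewhere), replicate 2 of 8.4/aFGF held liver transcripts (Alb at 138 CPM, at most 14.1 elsewhere) and replicate 2 of 8.4/bFGF held ovary transcripts (Akr1cl at 189 CPM, at most 0.744 elsewhere). The control libraries were themselves unlike. The 11 neutrophil markers summed to 1254 and 753 CPM in replicates 1 and 3 but to 8541 CPM in replicate 2, against 3126 to 13110 CPM in the hydrogel libraries. The main results that rest on these libraries are also given without them.

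Read per gene length, the members covered a wide span of abundance. Arg1 had the highest median of the 10 at 465 FPKM (fragments scaled to gene length and library total), followed by Spp1 at 190, Mrc1 at 125, Adgre1 at 81.5 and Cd163 at 80.4 FPKM. Trem2 at 52.6, Chil3 at 52.1, Nos2 at 46.7, Retnla at 40.5 and Gpnmb at 18.7 FPKM came next, and Ccr7 had a median of 7.64 FPKM. Medians do not show how far a gene moved between libraries of one treatment. The standard deviation within groups on the log2 CPM scale was 1.67 for Nos2, 1.28 for Arg1 and 1.27 for Retnla, compared with 0.29 for the median gene tested. Only 1.35% of the genes tested had a larger spread than Nos2. Adgre1, which encodes the pan-macrophage surface protein F4/80, had a spread of 0.39 and Trem2 had the smallest of the 10 at 0.30.

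**Figure D1:**
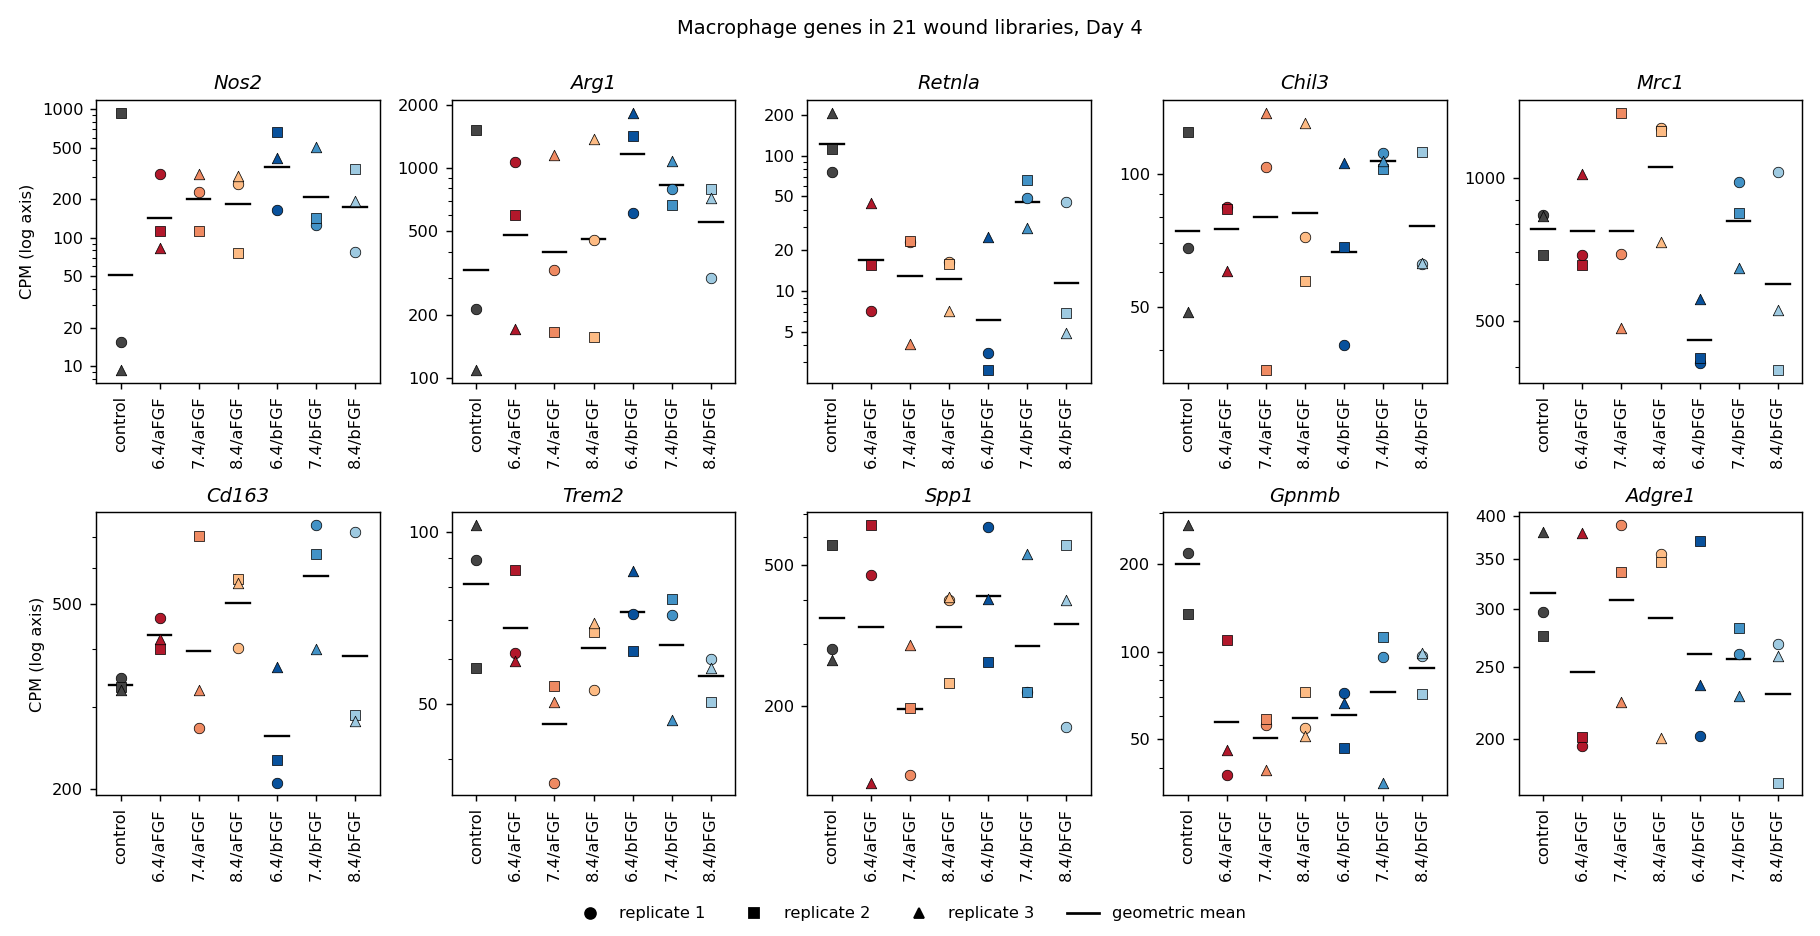
CPM on a log axis of each of the 10 genes in the 21 libraries, by group, with a symbol for each replicate number and a bar at the geometric mean of the 3 libraries. Retnla and Gpnmb are higher in all 3 control libraries than in any hydrogel library, and the control libraries of Nos2 lie between 9.37 and 943 CPM.

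Retnla and Gpnmb were the members that separated the control wounds from the hydrogel wounds. Retnla, a secreted protein induced by interleukins 4 and 13, had a mean of 132 ± 67.9 CPM in control (SD, n = 3) and 21.7 ± 18.7 CPM in the hydrogel libraries (SD, n = 18). Gpnmb, a transmembrane glycoprotein of lysosome-rich phagocytes, had 208 ± 69.3 CPM in control and 68.1 ± 25.2 CPM with a hydrogel. For both genes the difference missed the threshold of edgeR's quasi-likelihood test when all 21 libraries were used.

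In order of replicates 1 to 3, Retnla stood at 76.3, 112 and 208 CPM in control. With aFGF it stood at 7.16, 15.5 and 45.0 CPM at pH 6.4, at 23.0, 23.5 and 4.06 CPM at pH 7.4, and at 16.4, 16.0 and 7.15 CPM at pH 8.4. With bFGF it stood at 3.50, 2.63 and 25.2 CPM at pH 6.4, at 49.1, 66.1 and 29.5 CPM at pH 7.4, and at 45.8, 6.91 and 4.93 CPM at pH 8.4. The lowest control library was above the highest hydrogel library, which belonged to 7.4/bFGF, and within the hydrogel libraries the gene spanned a 25.1-fold range. The difference of hydrogels from control was -2.79 ± 0.59 on the log2 scale (standard error, edgeR, adjusted p = 0.0708).

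Gpnmb stood at 218, 135 and 272 CPM in control. With aFGF it stood at 37.7, 109.8 and 46.0 CPM at pH 6.4, at 56.1, 58.8 and 39.3 CPM at pH 7.4, and at 54.9, 72.9 and 51.5 CPM at pH 8.4. With bFGF it stood at 72.4, 46.6 and 66.9 CPM at pH 6.4, at 95.7, 113 and 35.6 CPM at pH 7.4, and at 96.9, 71.9 and 99.0 CPM at pH 8.4. Every control library was again above every hydrogel library, and the nearest were control replicate 2 and replicate 2 of 7.4/bFGF. The log2 difference was -1.64 ± 0.27 (edgeR, adjusted p = 0.0584).

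Of all genes tested, 0.253% had all 18 hydrogel libraries below all 3 control libraries, as Retnla and Gpnmb did, and 0.607% were separated in either direction. In the exact two-sided permutation test over libraries, both genes had p = 0.00150, the smallest that 18 against 3 libraries allow, and 0.0165 after Benjamini-Hochberg adjustment over the 22 such tests made. That adjustment covered only Ccr7 and the 10 members, which were listed with earlier results of these data known. Its values cannot be compared with edgeR's, which were adjusted over all genes tested. By edgeR, 0 of the 10 members were called at an adjusted p under 0.05 and a log2 change beyond 0.58, while 1 gene of 15811 was called (0.00632%). In all, 3 members, Retnla, Gpnmb and Trem2, had an unadjusted p under 0.05, as did 16.7% of all genes. DESeq2 called Retnla (adjusted p = 0.0165) and Gpnmb (adjusted p = 0.000310), beside 0.914% of the genes it tested. With a minimum of 10 counts in every library, edgeR called Gpnmb (adjusted p = 0.0493) beside 0.0365% of genes.

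The unlike control library decided part of this comparison. Without control replicate 2, edgeR called 4 members: Nos2 higher by 4.25 (adjusted p = 0.0142), and Retnla, Gpnmb and Trem2 lower, at -2.89 (adjusted p = 0.0181), -1.87 (adjusted p = 0.00407) and -0.65 (adjusted p = 0.0286). In that fit 7.4% of all genes were called, and the control group was represented by 2 libraries. Retnla and Gpnmb kept their sign and lay between -3.08 and -2.30 and between -1.87 and -1.40 when any 1 of the 21 libraries was left out. Without the 3 libraries that held cartilage, liver or ovary transcripts, the values were -2.67 (adjusted p = 0.126) and -1.62 (adjusted p = 0.104).

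Other sources of these transcripts were measured beside them. The adipocyte markers, a possible source of Retnla, were lower with hydrogels for 7 of 7 genes with a median log2 change of -1.48, against -0.02 for all genes. Of the 7, 0 were called with all libraries. Without control replicate 2 their median was -1.99 and 3 were called lower, where 7.4% of all genes were called. The 7 adipocyte markers summed to 9376, 753 and 5117 CPM in the control libraries, and to 456 to 7465 CPM with a hydrogel. Melanocytes also express Gpnmb, and the 8 melanocyte genes summed to 37.3 to 46.6 CPM in control and to 28.5 to 43.2 CPM with a hydrogel, with Pmel at most at 4.49 CPM. The 7 eosinophil genes summed to 37.3, 19.8 and 41.9 CPM in control and to 7.74 to 38.1 CPM with a hydrogel, where the highest was the library with marrow transcripts and the next 22.6 CPM. Among them, Ear2 and Ccr3 were highest in a control library (33.1 and 13.0 CPM), and the defining gene Epx was at 0 in 17 of the 21 libraries. The part of these cell types in the result was not tested. Bulk tissue cannot tell fewer cells of a type from less RNA of a gene per cell.

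**Figure D2:**
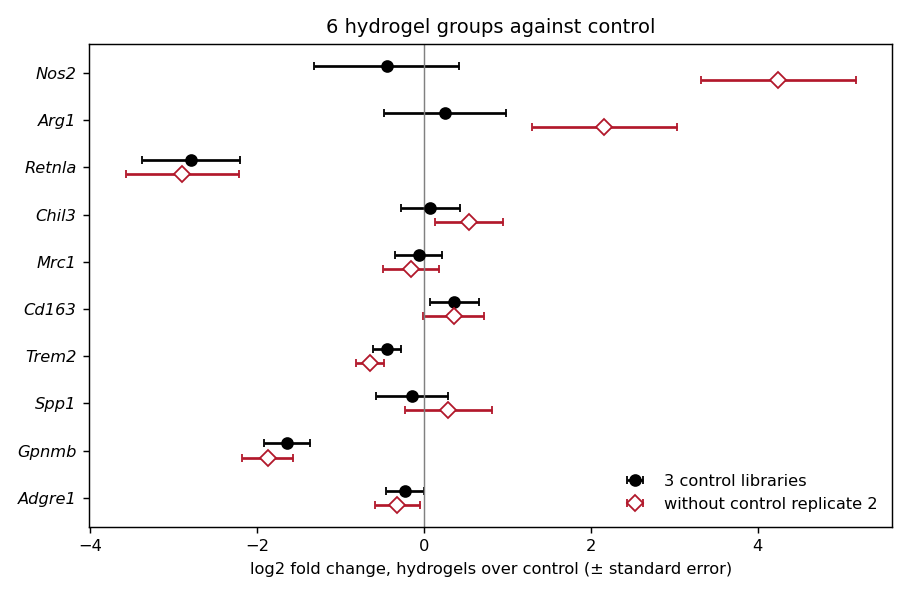
Log2 fold change of the 6 hydrogel groups over control for the 10 genes by edgeR, with standard errors, using all 3 control libraries (filled circles) or leaving out control replicate 2 (open diamonds). Retnla and Gpnmb stay below 0 in both, while Nos2 moves from -0.45 to 4.25.

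Nos2, the inducible nitric oxide synthase of inflammatory macrophages and neutrophils, differed more between replicates than between groups. It stood at 15.5, 943 and 9.37 CPM in control, a 101-fold range. With aFGF it stood at 314, 112 and 83.6 CPM at pH 6.4, at 227, 113 and 313 CPM at pH 7.4, and at 263, 76.7 and 305 CPM at pH 8.4. With bFGF it stood at 165, 663 and 415 CPM at pH 6.4, at 126, 143 and 507 CPM at pH 7.4, and at 78.0, 345 and 193 CPM at pH 8.4. All 18 hydrogel libraries were above control replicates 1 and 3 and all were below control replicate 2. Being above those 2 control libraries in all 18 was shared by 6.61% of all genes.

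Because of this split, the sign of the difference of Nos2 from control depended on the scale. The edgeR estimate was -0.45 ± 0.87 (adjusted p = 0.828), whereas the mean of log2 CPM was higher by 1.97 with a hydrogel (exact permutation p = 0.0707, and 0.389 after adjustment over the 22 tests). Nos2 followed the neutrophil markers across libraries. The Pearson correlation of its log2 CPM with their mean was 0.88 over 21 libraries, 0.70 without the 2 libraries farthest from the median of Nos2, which were control replicates 1 and 3, and 0.93 after removing group means. All 11 neutrophil markers were higher with hydrogels than in control, by a median of 0.92, and 0 of them were called. When control replicate 2 was left out, 9 of the 11 were called higher, where 7.4% of all genes were called. The part of neutrophils in the values of Nos2 was not tested.

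Arg1, which converts arginine to ornithine and competes with Nos2 for its substrate, had the highest median FPKM of the members and a spread next to that of Nos2. It stood at 215, 1509 and 109.7 CPM in control. With aFGF it stood at 1071, 599.8 and 171 CPM at pH 6.4, at 329, 167 and 1152 CPM at pH 7.4, and at 455, 157 and 1374 CPM at pH 8.4. With bFGF it stood at 609, 1424 and 1833 CPM at pH 6.4, at 798, 663 and 1077 CPM at pH 7.4, and at 301, 791 and 717 CPM at pH 8.4. The groups overlapped, and the control library that was high in Nos2 was also high in Arg1. The difference of hydrogels from control was 0.25 ± 0.73 (edgeR, adjusted p = 0.894), and 2.16 ± 0.87 without control replicate 2 (adjusted p = 0.114).

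Arg1 is often read as the counterpart of Nos2, yet the genes went together here. Their correlation was 0.83 (Spearman's rho 0.88) over the 21 libraries, 0.81 without the 2 libraries farthest from the median of Nos2, 0.82 without control replicate 2, and 0.84 within groups. The ratio of Arg1 to Nos2 in FPKM was 34.1 at the median of the control libraries but 4.65 at the lowest, control replicate 2, and the medians of the hydrogel groups lay between 4.31 and 13.5. These correlations describe libraries that share a tissue and its cell mixture, and no test was attached to them.

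Chil3, a chitinase-like protein released by macrophages and granulocytes, ranged from 36.1 to 138 CPM. Its highest value came from replicate 3 of 7.4/aFGF, where the 9 granulocyte precursor genes summed to 315 CPM, against at most 197 CPM elsewhere. The 7.4/bFGF libraries were the most even, at 112, 103 and 107 CPM. Its near-identical relative Chil4 was at most at 3.20 CPM, and how the counting split reads between the copies is not given in the sources used here. Chil3 differed from control by 0.08 ± 0.35 (edgeR, adjusted p = 0.935). Like Nos2, it went with Arg1, at a correlation of 0.70 (0.84 within groups). Arg1 and Chil3 also went with the mean of the neutrophil markers, at 0.71 and 0.59 (0.86 and 0.72 within groups). The part of neutrophils in these values was not tested.

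The scavenger receptors Mrc1 and Cd163 were lower in all libraries of 6.4/bFGF than in any library of 3 other hydrogel groups, 7.4/bFGF, 6.4/aFGF and 8.4/aFGF. Mrc1 encodes CD206, the mannose receptor, and Cd163 encodes the receptor for haptoglobin-bound haemoglobin. Both had their lowest mean in 6.4/bFGF, at 461 ± 83.3 CPM for Mrc1 and 268 ± 86.7 CPM for Cd163 (SD, n = 3). Between 6.4/bFGF and 7.4/bFGF or 6.4/aFGF, neither gene was called by edgeR, and 15.1% and 14.5% of all genes did not overlap. For 6.4/bFGF against 8.4/aFGF or control, no edgeR test was run and no share of all genes was computed.

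Mrc1 stood at 837, 690.5 and 833 CPM in control. With aFGF it stood at 690.3, 658 and 1022 CPM at pH 6.4, at 694, 1376 and 485 CPM at pH 7.4, and at 1276, 1257 and 735 CPM at pH 8.4. With bFGF it stood at 408, 418 and 557 CPM at pH 6.4, at 985, 844 and 647 CPM at pH 7.4, and at 1029.7, 395 and 528 CPM at pH 8.4. For Mrc1, the 3 libraries of 6.4/bFGF were below all 3 of 7.4/bFGF and of 6.4/aFGF, pairs where 15.1% and 14.5% of all genes did not overlap. They were also below all 3 of 8.4/aFGF and of control, where that share was not computed. They overlapped those of 7.4/aFGF and 8.4/bFGF. In the same libraries Cd163 stood at 207, 231 and 367 CPM in 6.4/bFGF. It stood at 741, 642 and 400.1 CPM in 7.4/bFGF, 468, 401 and 420.4 CPM in 6.4/aFGF, and 403, 567 and 557 CPM in 8.4/aFGF, with no overlap. Unlike Mrc1, Cd163 in 6.4/bFGF overlapped control, at 348, 332 and 327 CPM. It also overlapped 7.4/aFGF, at 271, 703 and 327 CPM, and 8.4/bFGF, at 716, 290 and 280 CPM.

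Between 6.4/bFGF and 7.4/bFGF, Mrc1 differed by -0.82 ± 0.21 and Cd163 by -1.13 ± 0.31 on the log2 scale (edgeR, adjusted p = 0.542 for each). Retnla was also separated between these groups, at -2.19 ± 0.90 (adjusted p = 0.558). These were 3 of 10 members without overlap, against 15.1% of all genes, and 3 of 10 had an unadjusted p under 0.05, against 8.89%. By edgeR 0 genes were called, while DESeq2 called Mrc1 (adjusted p = 0.0317) and Cd163 (adjusted p = 0.0385) beside 0.632% of genes. Between 6.4/aFGF and 6.4/bFGF, Mrc1 differed by 0.77 ± 0.23 (adjusted p = 0.587) and Cd163 by 0.67 ± 0.23 (adjusted p = 0.590). In that pair 14.5% of all genes did not overlap and 8.16% had an unadjusted p under 0.05, as did these 2 members. Both edgeR and DESeq2 called 0 members.

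Mrc1 and Cd163 varied together, with a correlation of 0.76 over 21 libraries and 0.73 within groups. Both followed the mean of 14 genes of resident macrophages such as Lyve1 and Folr2, at 0.73 and 0.72. In 6.4/bFGF against 7.4/bFGF, 13 of these 14 genes were lower, with a median of -0.44 against 0.01 for all genes. Of the 14, 6 had an unadjusted p under 0.05 and 0 were called. The 8 skeletal muscle markers and the 7 adipocyte markers were lower in the same comparison as well, by medians of -1.95 and -1.52, with 0 called, and their part in the result was not tested.

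Trem2, a lipid-sensing receptor of phagocytes, stood at 89.5, 57.8 and 103 CPM in control. With aFGF it stood at 61.4, 85.7 and 59.4 CPM at pH 6.4, at 36.4, 53.7 and 50.3 CPM at pH 7.4, and at 53.0, 66.7 and 69.2 CPM at pH 8.4. With bFGF it stood at 71.9, 61.8 and 85.5 CPM at pH 6.4, at 71.6, 76.3 and 46.8 CPM at pH 7.4, and at 59.8, 50.4 and 57.9 CPM at pH 8.4. Control replicates 1 and 3 were above every hydrogel library, and control replicate 2 lay among them. The share of all genes with this pattern was not computed. The difference from control was -0.44 ± 0.17 (edgeR, adjusted p = 0.215, exact permutation p = 0.0586). Between 6.4/aFGF and 7.4/aFGF, Trem2 was the single member without overlap, at 0.55 ± 0.21 (edgeR, adjusted p = 0.832), in a pair where 10.8% of all genes did not overlap. Without the 7.4/aFGF library that held bone transcripts it was 0.62 (adjusted p = 0.662). It was also the 1 member with an unadjusted p under 0.05, against 4.99% of genes, and edgeR and DESeq2 called 0 members.

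Spp1 encodes osteopontin, a secreted matrix protein of macrophages, bone and other cells. It ranged from 121 to 649 CPM, both in 6.4/aFGF, and in the library with bone transcripts it stood at 297 CPM, inside the range of the others. Spp1 differed from control by -0.14 ± 0.43 (edgeR, adjusted p = 0.900). Adgre1 ranged from 175 to 389 CPM and differed from control by -0.23 ± 0.23 (adjusted p = 0.631). Across libraries, Spp1 and Adgre1 went in opposite directions, with a correlation of -0.73 and of -0.81 within groups. Trem2 and Gpnmb had a correlation of 0.66, and both followed the 18 lipid-associated genes, at 0.70 and 0.74. Retnla, of another program, followed the same list at 0.74. Without the 2 libraries farthest from the median of the gene, the values were 0.63 for Trem2, 0.53 for Gpnmb and 0.63 for Retnla. Spp1 had correlations of 0.15 with that list, 0.17 with Trem2 and 0.01 with Gpnmb.

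**Figure D3:**
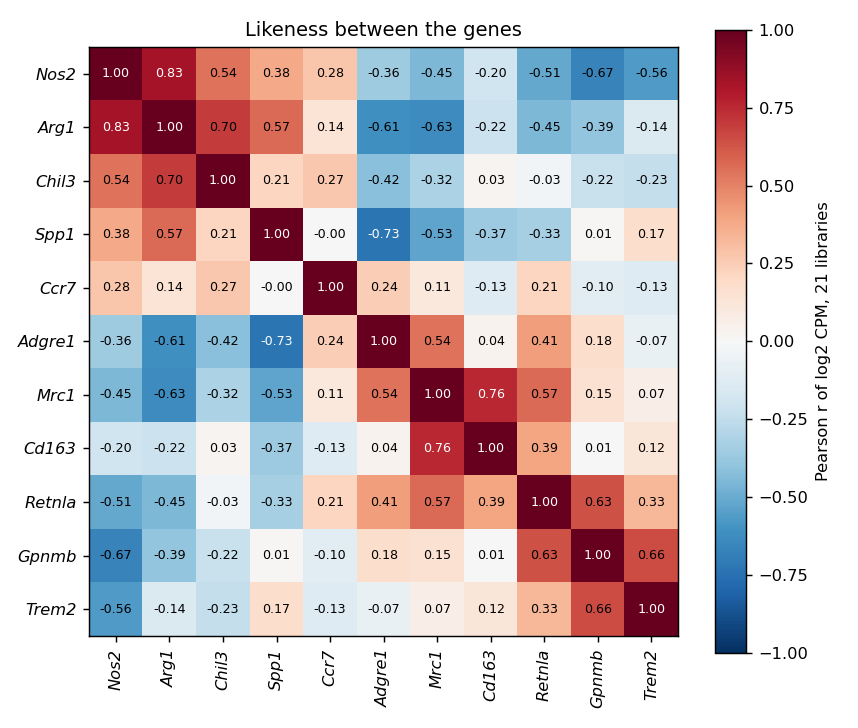
Pearson correlations of log2 CPM between the 10 genes and Ccr7 over the 21 libraries, from -1 (blue) to 1 (red). Nos2, Arg1 and Chil3 form a block with 0.83 between the first pair, Mrc1 goes with Cd163 at 0.76, and Gpnmb goes with Trem2 at 0.66.

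**Figure D4:**
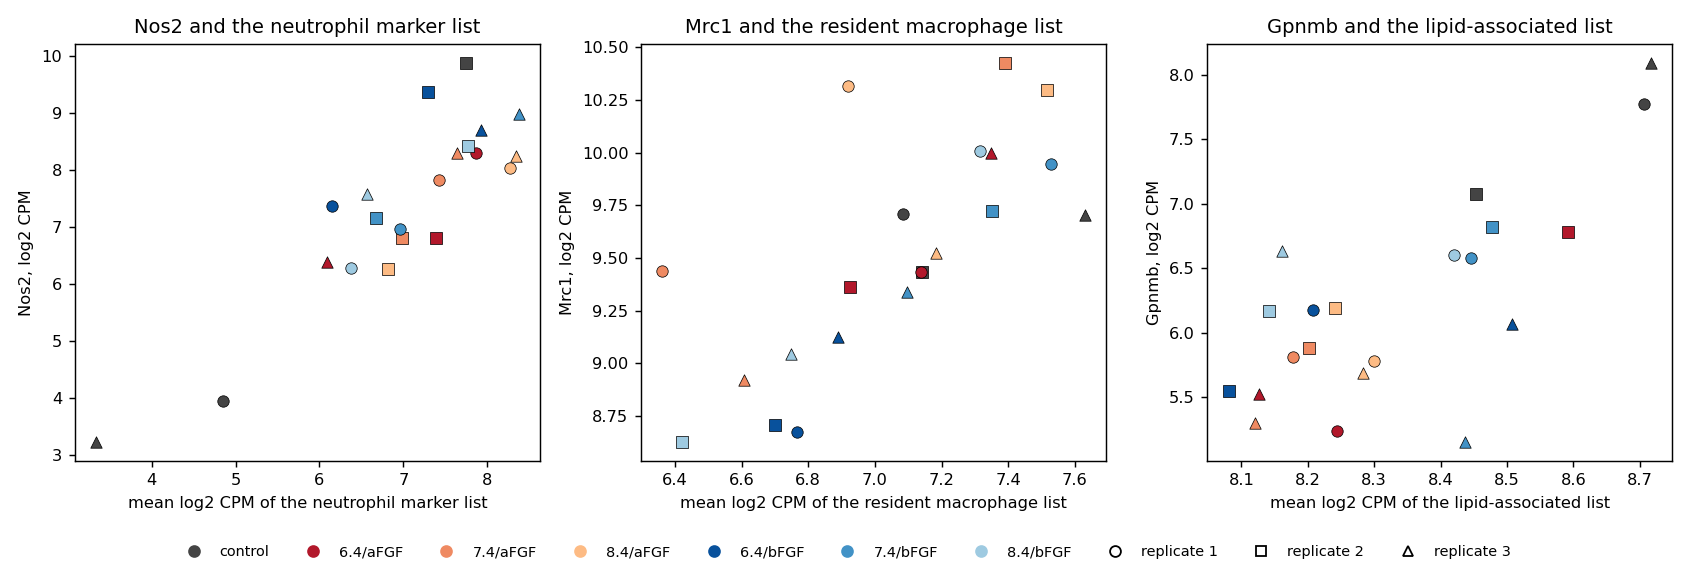
Log2 CPM of Nos2, Mrc1 and Gpnmb in each library against the mean log2 CPM of 11 neutrophil, 14 resident macrophage and 18 lipid-associated genes, coloured by group, with a symbol for each replicate number. Control replicates 1 and 3 lie at the low end for neutrophil genes and Nos2, and at the high end for lipid-associated genes and Gpnmb.

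The study stained wounds for CCR7 and CD206 and reported a shift of macrophages toward a regenerative state in 6.4/aFGF. On day 4 it found significantly more CD206 and less CCR7 there than in the other 6 groups. Stained cells in sections and RNA of whole wound tissue are unlike measures, so the values below do not test the stains. Set against the mean of the other 6 groups, Mrc1 differed in 6.4/aFGF by 0.07 ± 0.28 and Ccr7 by 0.23 ± 0.34 (edgeR, adjusted p = 0.998 and 0.981). The 10 members ranged from -0.63 for Nos2 to 0.30 for Spp1, with adjusted p from 0.968 to 0.998. Called by edgeR were 0 of 10 members and 0% of all genes, and 0 of 10 members had an unadjusted p under 0.05, against 5.66% of all genes. DESeq2 called 0 members, and the exact permutation p of the 10 members ranged from 0.383 to 0.874.

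Ccr7, a chemokine receptor of inflammatory macrophages and of migrating dendritic and T cells, was the least abundant gene of this group. It stood at 12.5, 37.6 and 12.3 CPM in control and at 13.7, 23.1 and 17.5 CPM in 6.4/aFGF. Over all libraries it ranged from 5.88 to 37.6 CPM, and its correlation was 0.82 with 11 dendritic and T cell genes, 0.83 with 9 genes of the interferon gamma and bacterial product axis, and 0.76 with 17 general macrophage genes. The ratio of Mrc1 to Ccr7 in FPKM had a median of 18.7 in 6.4/aFGF, inside the span of 9.86 to 28.2 that the group medians covered. In 8.4/aFGF Ccr7 stood at 16.8, 16.5 and 14.5 CPM, above the 6.25, 5.88 and 11.4 CPM of 8.4/bFGF. That difference was 1.02 ± 0.28 (edgeR, adjusted p = 0.137, and DESeq2, adjusted p = 0.0205), in a pair where 26.9% of all genes did not overlap and edgeR called 0.00665%. Without the liver and ovary libraries of this pair it was 0.82 ± 0.34 (edgeR, adjusted p = 0.406). For aFGF against bFGF, Ccr7 also differed by 0.16 ± 0.40 at pH 6.4 and by 0.72 ± 0.35 at pH 7.4 (edgeR, adjusted p = 0.929 and 0.413). Over all pH values it was 0.63 ± 0.26 (edgeR, adjusted p = 0.129).

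**Figure D5:**
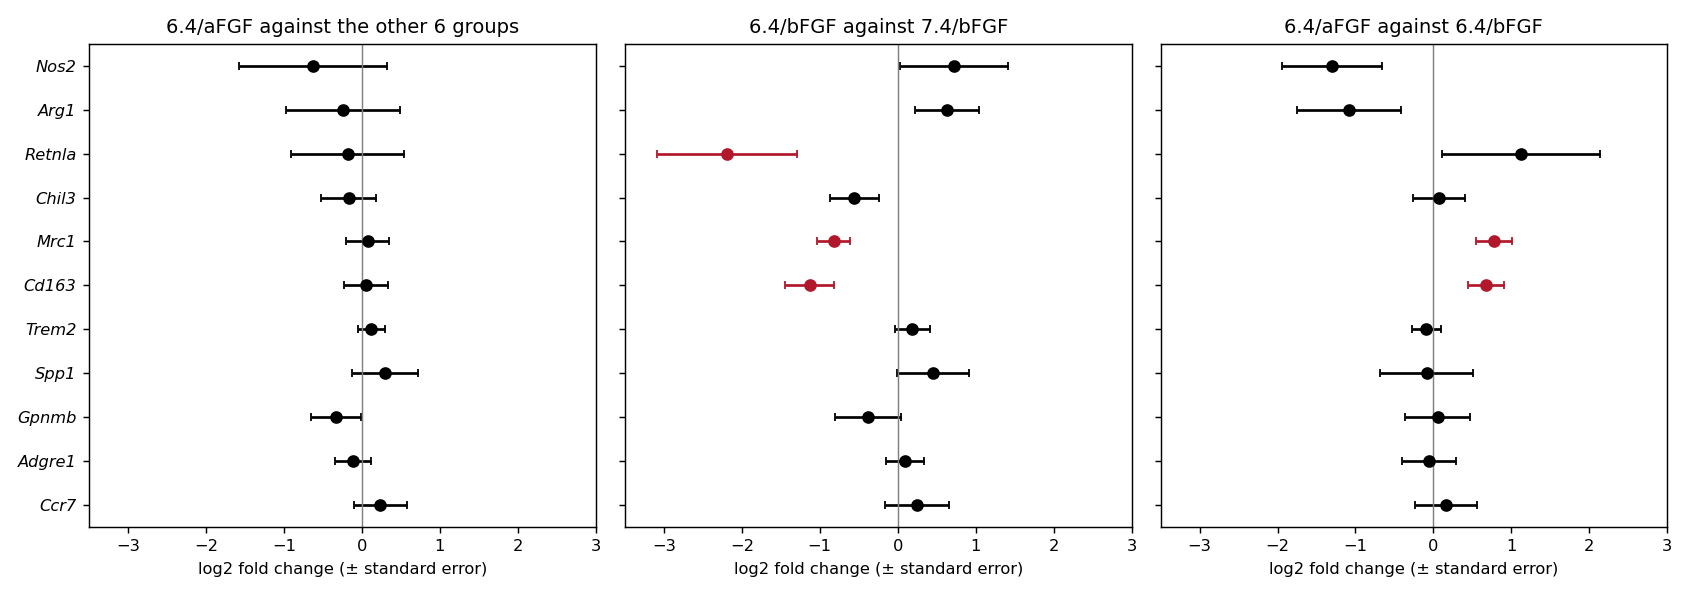
Log2 fold changes with standard errors by edgeR for the 10 genes and Ccr7 in 3 comparisons, with red where the unadjusted p is under 0.05. In 6.4/aFGF against the other groups every value lies between -0.63 and 0.30, and the red points elsewhere are Mrc1 and Cd163 in both pairs and Retnla in 6.4/bFGF against 7.4/bFGF.

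Over all pH values, 3.2% of genes were called between the aFGF and bFGF groups, and 0 of the 10 members were. Mrc1 was nearest, at 0.52 ± 0.21 (edgeR, adjusted p = 0.119), with a mean of 1089 ± 307 CPM in 8.4/aFGF and 651 ± 335 CPM in 8.4/bFGF. By pH, its difference was 0.77 ± 0.23 at 6.4, 0.05 ± 0.40 at 7.4 and 0.75 ± 0.39 at 8.4 (edgeR, adjusted p = 0.587, 0.967 and 0.315). In the fit over all pH values, Mrc1 was called only when replicate 1 of 8.4/bFGF was left out (adjusted p = 0.0390, 3.28% of genes called). Without the 3 libraries that held other tissues it was 0.49 ± 0.20 (adjusted p = 0.149). Of the 10 members, 1 had an unadjusted p under 0.05, against 28% of all genes, and DESeq2 called 0 members. Between pH 6.4 and 7.4 over both factors, Cd163 differed by -0.58 ± 0.27 (adjusted p = 0.472) and Trem2 by 0.36 ± 0.16 (adjusted p = 0.463), and 10.2% of all genes had an unadjusted p under 0.05. Between pH 8.4 and 7.4 the adjusted p of every member was 1.00, and 0 members had an unadjusted p under 0.05, against 4.96% of genes. The interaction of pH 6.4 against 7.4 with the growth factor had its smallest p for Cd163, at 1.11 ± 0.52 (edgeR, adjusted p = 0.808), and 0 members had an unadjusted p under 0.05, against 6.09% of genes. By edgeR and by DESeq2, 0 members were called in these pH comparisons and in the interaction. At pH 7.4, Retnla was the single member without overlap between the factors, at -1.52 ± 0.66 for aFGF against bFGF (edgeR, adjusted p = 0.388), as were 20% of all genes, and 0 members had an unadjusted p under 0.05, against 13% of genes. At pH 8.4, Gpnmb had the smallest p of the members, at -0.58 ± 0.19 (edgeR, adjusted p = 0.169), where 21.1% of all genes had an unadjusted p under 0.05. In both pairs edgeR and DESeq2 called 0 of the 10 members. Without the 3 libraries that held other tissues, these values were -1.06 for Retnla (adjusted p = 0.240) and -0.89 for Gpnmb (adjusted p = 0.203).

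Any difference among the 7 groups was called for 0.114% of genes and for 0 of 10 members by edgeR. The smallest adjusted p belonged to Gpnmb (0.0893) and Retnla (0.143), and 3 members had an unadjusted p under 0.05, against 19.3% of genes. DESeq2 called Gpnmb and Retnla, beside 10.8% of genes. Without the 3 libraries that held other tissues, the adjusted p by edgeR was 0.182 for Gpnmb and 0.233 for Retnla. When the 7 groups were ordered by the mean of each member, neighbours were separated only for Retnla (7.4/bFGF and control) and Gpnmb (8.4/bFGF and control). Both restate the separation of all hydrogel libraries from control, shared by 0.253% of all genes. The share of all genes with separated neighbours was not computed. The neighbours of the other 8 members overlapped throughout.

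Further genes of the same programs came from lists that leave the 10 members out. In hydrogels against control, 0 of 17 inflammatory genes, 0 of 17 repair genes and 0 of 18 lipid-associated genes were called by edgeR. Unadjusted p under 0.05 was reached by 3, 7 and 9 of them, against 16.7% of all genes, and the medians were -0.30, -0.79 and -0.23. Without control replicate 2, 9 of the 17 inflammatory genes were called higher and 0 lower. Of the repair genes, 2 were called higher and 3 lower, and 4 lipid-associated genes were called lower. In that fit 7.4% of all genes were called. Upstream, the cytokine genes Il4 and Il13 were at most at 0.707 and 1.06 CPM and Ifng at most at 4.49 CPM. Il1b, by contrast, reached 1795 CPM in control replicate 2.

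Between aFGF and bFGF, genes on the macrophage lists were called although the members were not. Mmp12, a macrophage elastase, was lower with aFGF, at -2.37 ± 0.34 on the log2 scale (edgeR, adjusted p = 0.00302). Higher with aFGF were the costimulatory gene Cd86 at 0.89 ± 0.21 (adjusted p = 0.0158), the transcription factor Irf5 at 0.65 ± 0.13 (adjusted p = 0.00901) and the Fc receptor Fcgr1 at 0.66 ± 0.20 (adjusted p = 0.0443). The haem-degrading enzyme Hmox1 at 0.65 ± 0.19 (adjusted p = 0.0368) and the cytokine Il33 at 1.04 ± 0.32 (adjusted p = 0.0489) were higher too. Each list had 0 to 2 genes called, namely 2 of 17 inflammatory, 2 of 17 general macrophage, 1 of 18 lipid-associated, 1 of 14 resident, 1 of 8 genes of the interleukin 4 and 13 axis, and 0 of 17 repair genes. These counts stand beside 3.2% of all genes. Of the 10 liver genes, 5 were called, each highest in replicate 2 of 8.4/aFGF. Also called were Alpl of the bone list, highest in replicate 3 of 8.4/aFGF, and Inha of the ovary list, highest in replicate 2 of 8.4/bFGF. Without the 3 libraries that held other tissues, 2.33% of genes were called, and among them were Mmp12 (-2.70, adjusted p = 0.00926), Cd86 (0.86, adjusted p = 0.0396) and Irf5 (0.64, adjusted p = 0.0321). In that fit Fcgr1 (0.57, adjusted p = 0.0956), Hmox1 (0.68, adjusted p = 0.0780) and Il33 (1.06, adjusted p = 0.103) were no longer called, while 4 of the 5 liver genes still passed the threshold.

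The genes whose levels ran closest to each member across the 21 libraries were found among all genes tested, by Pearson correlation of log2 CPM. For Nos2 they were the glucose transporter Slc2a1 (0.96), the protease inhibitor Slpi (0.95) and the itaconate enzyme Acod1 (0.94). For Arg1 they were the histone demethylases Kdm3a (0.95) and Kdm5b (0.95), and Ankrd37 (0.94). For Mrc1 they were the adaptor subunit Ap2a2 (0.94), Osbpl11 (0.94) and Ap1b1 (0.91). Retnla ran closest to the lectin Mgl2 (0.89), Scamp2 (0.87) and the ribonuclease Ear2 (0.85). Both Mgl2 and Ear2 reached their highest level in control replicate 3, at 90.5 and 33.1 CPM, the library that was highest in Retnla.

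The nearest genes of the remaining members and of Ccr7 had correlations of 0.81 to 0.92. Cd163 ran with Pgap6 (0.88), Prune2 (0.85) and the hyaluronan receptor Lyve1 (0.85). Chil3 ran with the histamine receptor Hrh2 (0.86) and Capn1 (0.84), and Adgre1 with Clec4a3 (0.87), Ly9 (0.87) and Pld4 (0.85). Trem2 ran with Sh3gl1 (0.82), the lysosomal protease Ctsd (0.81) and Vat1 (0.81), and Spp1 with Eva1b (0.85), Dach1 (0.81) and Mark1 (0.81). Gpnmb ran with Washc1 (0.83), Lgr5 (0.83) and Gpr160 (0.82). Without the 2 libraries farthest from the median of the member, the values were 0.68, 0.65 and 0.65 for these neighbours of Gpnmb, 0.68, 0.70 and 0.67 for those of Trem2, and 0.69 for Mark1 with Spp1. Ccr7 ran with Bcl2a1d (0.92), Bcl2a1b (0.89) and Clec7a (0.88), of which the first pair are near-identical copies whose reads may be split by the counting.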

How the data were processed

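For each of the 21 libraries the authors deposited whole read counts of 18806 genes, not normalized. The FPKM values of the authors follow from these counts, a fixed length per gene and the library total. RNA was extracted with TRIzol and made into libraries with a TruSeq stranded mRNA kit. The submitters' processing notes name the build GRCm39, and the aligner, the counting and the annotation are not given in the sources used here. A RefSeq table of another assembly, used for names alone, held 18662 of the symbols.

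The counts were scaled by TMM and filtered with edgeR 4.0.16 under R 4.3.3, tested by its quasi-likelihood method, and turned into log2 CPM with a prior count of 2. A call needed an adjusted p (Benjamini-Hochberg, over all genes tested) under 0.05 together with a log2 change beyond 0.58. Comparisons over several groups used all 21 libraries, and pairs of groups used the libraries compared. Exact permutation tests used scipy 1.17.1 in Python 3.11.15. Alternatives were DESeq2 1.42.0, limma 3.58.1 on the log2 of FPKM with a pseudocount of 1 or 0.1 (genes with a mean of 1 or more), RLE scaling, the unfiltered table, a minimum of 10 counts per library, a robust fit, no fold change threshold, the replicate number as a block, and leaving out libraries. The tests were tried on simulated data.

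The 10 members, the gene lists, and the libraries left out were chosen with earlier results of these data known. Named are the 10 members, Ccr7, list genes that were called, markers of other sources of a member, and the 3 genes most correlated with each member, apart from items that are not reported here. Cytokine, skin and macrophage marker genes and the ratios in FPKM were chosen after their values were seen. Libraries of one group differed beyond counting noise (chi-square per gene of 17.2 to 367.6), so none was counted as a repeat.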

Additional observations from a re-analysis of the deposited data

How the results depend on the processing

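Of 291 repeats of the count of members called over the 12 comparisons, 279 gave the same count. DESeq2 called 2 members for any difference among the groups, 2 for hydrogels against control and 2 for 6.4/bFGF against 7.4/bFGF, where edgeR called 0, and a minimum of 10 counts in every library gave 1 (Gpnmb, adjusted p = 0.0493) for hydrogels against control. Leaving out 1 library gave 0 to 4 members for hydrogels against control, 0 to 1 for any difference and 0 to 1 for aFGF against bFGF. The 4 came without control replicate 2, and 1 (Gpnmb) without 6.4/aFGF replicate 2, 7.4/aFGF replicate 1, 6.4/bFGF replicate 1 or 7.4/bFGF replicate 3. The cause was not tested.

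Of 937 repeats for single genes, 897 kept their sign and side of the threshold, 15 passed it anew, 0 lost it and 25 changed sign. Of the 25, only Nos2 in hydrogels against control without control replicate 2 was called. In hydrogels against control, Nos2 was 1.70 and 1.93 by limma with pseudocounts of 1 and 0.1, and without the 3 libraries holding other tissues Mrc1 was 0.0064 and Chil3 was -0.0079. Leaving out 1 library, the ranges there were -1.02 to 4.25 for Nos2, -0.25 to 2.16 for Arg1, -0.18 to 0.54 for Chil3, -0.33 to 0.29 for Spp1 and -0.74 to 0.28 for Ccr7. In 6.4/aFGF against the other groups they were -1.43 to 0.15 for Nos2, -0.91 to 0.20 for Arg1, -0.16 to 0.19 for Mrc1, -1.17 to 0.24 for Retnla, -0.013 to 0.15 for Cd163, -0.070 to 0.21 for Trem2, -0.19 to 0.73 for Spp1 and -0.50 to 0.048 for Adgre1.

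With the replicate number as a block, 0 members were called in each of the 12 comparisons, and Arg1 in 6.4/aFGF against the other groups was 0.050 in place of -0.24. Samples with the same number share only that number: their deviations from the group means had a median correlation of 0.01 (-0.64 to 0.42 over 63 pairs, 14 of them over 0.1), and 5 of 21 libraries were closest to one with their own number. The block changed no call of a member.

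With 3 libraries a group and a spread within groups of 1.27 to 1.67 on the log2 scale, small differences of Nos2, Arg1 and Retnla were not detectable. The limit that a count of 0 allows was at most 0.0873 CPM, under the lowest level of any of the 10 genes (2.63 CPM, Retnla). A control group of 3 unlike libraries bears on every comparison that uses it.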

Other observations

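Lists of cells other than macrophages also went with the members across the 21 libraries. The log2 CPM of Retnla had a correlation of -0.78 with the mean of 8 endothelial genes such as Pecam1 and Cdh5, of -0.79 without the 2 libraries farthest from the median of Retnla, and of -0.77 after removing group means. Mrc1 had a correlation of -0.77 with 6 proliferation genes such as Mki67, of -0.78 without the 2 libraries farthest from its median and of -0.69 within groups. These pairs were picked from all lists after their values were seen, the points share the composition of each wound sample, and no test was made. In hydrogels against control, the endothelial genes had a median log2 change of 0.30 and the proliferation genes of 0.26, against -0.02 for all genes, and 0 of them were called by edgeR, with 1 endothelial gene and 0 proliferation genes at an unadjusted p under 0.05.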
